A study of Mus musculus with 16 samples.

Results

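The carboxylesterases Ces1d, Ces1f, Ces1g, Ces2a, Ces2b, Ces2c, Ces2e and Ces2g were followed across 16 RNA-seq libraries of mouse tibialis anterior, a mainly fast-twitch muscle of the lower hind limb. They were chosen by gene symbol, 8 of the 20 carboxylesterase genes in a table of 47643 genes. Ces1d was picked for its difference between UBR4 mKO and WT muscle at 6 months, and Ces2c for its difference between 24 and 6 months in WT muscle, so those differences are given as descriptions with no test. The same holds for any other comparison of these genes that reuses libraries of the contrast that picked them. This leaves Ces1d tested only at 24 months and Ces2c only with age in UBR4 mKO muscle.

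The study removed UBR4, a large ubiquitin ligase of the N-degron pathway, from skeletal muscle and asked how this changes muscle at a young and an old age. All mice were C57BL6/J males by their labels and carried homozygous floxed Ubr4 alleles. The UBR4 mKO mice also carried ACTA1-Cre, a recombinase under the promoter of skeletal actin that tamoxifen activates. The WT controls lacked Cre, so "WT" stands for floxed mice without recombination, and both genotypes received tamoxifen as adults. Each genotype was sampled at 6 months and at 24 months, with 4 biological replicates in each of the 4 groups. The promoter is active in myofibers, so the other cells of the muscle were not targeted.

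Carboxylesterases are serine hydrolases that sit mostly in the lumen of the endoplasmic reticulum or are secreted, and they cut ester and amide bonds in drugs, toxins and lipids. They are known above all from liver, intestine and adipose tissue. The Ces1 enzymes include lipid hydrolases such as Ces1d (also called Ces3 or TGH), which hydrolyses stored triacylglycerol, and the Ces2 enzymes include Ces2c, an acylglycerol hydrolase. In the mouse each subfamily is a row of tandem duplicates on one chromosome, which is why its members look alike in sequence.

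The positions below are from GENCODE on GRCm38, the build to which the reads were aligned. The Ces1 members lie in 1 cluster on the minus strand of chromosome 8, where Ces1e separates Ces1d from Ces1f, with Ces1d at chr8:93166068-93197838, Ces1f at chr8:93256236-93279747 and Ces1g at chr8:93302369-93337308. The Ces2 members lie further along the same chromosome on the plus strand, with Ces2a at chr8:104734003-104741634, Ces2b at chr8:104831572-104840093, Ces2c at chr8:104847068-104854483, Ces2e at chr8:104926260-104934672 and Ces2g at chr8:104961718-104969537. All 8 are protein-coding genes, with 14 exons in the longest coding transcript of each Ces1 member and 12 in that of each Ces2 member.

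The bases around the catalytic serine show how closely these paralogs resemble each other within the length of 1 sequencing read. In each line the capitals mark the 15 bases that encode the short motif around the serine, the site at which the enzyme attacks its substrate, and the 55 bases shown lie within exon 5 of that gene. The sequences are from the GENCODE transcripts and are printed in the direction of transcription, for the 3 members with measurable signal and for Ces2b and Ces2a as comparison.
Ces1d, chr8:93187744-93187798, minus strand: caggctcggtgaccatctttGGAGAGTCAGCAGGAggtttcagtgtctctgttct
Ces2c, chr8:104850748-104850802, plus strand: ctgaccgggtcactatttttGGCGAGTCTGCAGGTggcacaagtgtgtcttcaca
Ces2b, chr8:104834922-104834976, plus strand: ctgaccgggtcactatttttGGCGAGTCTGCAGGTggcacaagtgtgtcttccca
Ces2g, chr8:104964973-104965027, plus strand: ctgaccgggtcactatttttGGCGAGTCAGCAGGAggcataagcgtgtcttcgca
Ces2a, chr8:104737390-104737444, plus strand: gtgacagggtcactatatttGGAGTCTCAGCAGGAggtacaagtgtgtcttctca

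Over these 55 bases Ces2b differed from Ces2c at 1 base, Ces2g at 5, Ces2a at 10 and Ces1d at 19. Within the capitals, counted from 1 at the first capital, Ces2b had the same bases as Ces2c. Ces2g differed from Ces2c by T9A and T15A, both at the last base of a codon. Ces2a differed by C3A, A5T, G6C, T9A and T15A, and A5T and G6C fall in the codon before the serine codon.

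Over whole coding sequences, the 3 pairs of Ces1 members were identical at 74.6% to 81.5% of aligned bases and the 10 pairs of Ces2 members at 81.6% to 92.1%. Ces2b and Ces2c were the most alike, at 92.1%. Between the subfamilies the identity was 59.3% to 61.7% over 15 pairs. Of all 100-base windows of the Ces2c transcript, 16% (299 of 1871) were found without a mismatch in a transcript of another gene. Of these windows 294 were in the neighbouring pseudogene Ces2d-ps, 164 in the pseudogene Gm8798 and 46 in the pseudogene Gm6831, some of them in more than 1 of the 3. None of the 1905 windows of Ces1d and none of the 2760 windows of Ces2g were shared in this way. Reads of Ces2c and these pseudogenes can therefore be split between the copies in a way that the values do not show, and how the alignment treated such reads is not given in the sources used here.

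The labels were checked before the members were compared. Ubr4 itself was lower in the UBR4 mKO libraries at both ages, with 4.91 to 6.54 TPM against 9.09 to 15.7 TPM at 6 months and 4.28 to 14.6 TPM against 17 to 21.1 TPM at 24 months. TPM counts a gene's reads per transcript length and scales every library to 1000000, so levels can be compared between genes but the sequencing depth is not kept. All libraries are labelled male, yet in 3 of them (WT 6 months replicates 2 and 3 and UBR4 mKO 6 months replicate 4) Xist, the RNA of the inactive X chromosome, was above the Y-linked gene Ddx3y. Xist lay between 0.711 and 23.8 TPM in the 8 libraries of 6 months and at most at 0.0252 TPM in those of 24 months, so the age comparisons carry this difference with them. Ddx3y lay between 2.29 and 13.4 TPM in WT at 6 months, at 0.073 TPM in replicate 4 and between 13.2 and 22.6 TPM in the other UBR4 mKO libraries of that age, and between 13.5 and 30.5 TPM at 24 months, so the comparison of the genotypes at 6 months carries a difference too. Xist and Ddx3y were thus found together in libraries of 6 months, and whether samples were mixed or mislabelled was not tested. Values given below without the 3 libraries still rest on others of 6 months that hold Xist. Transcripts of the mitochondrial genome took 52.6% to 59.7% of TPM in WT libraries at 6 months and 46.1% to 51.7% in the other groups. The median gene was higher by 0.33 on the log2 scale in UBR4 mKO than in WT muscle at 6 months, and by 0.26 at 24 than at 6 months in WT muscle.

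Ces1d was the highest carboxylesterase in every library, with 47.5% to 97.9% of the family's summed TPM, Ces2c and Ces2g contributed the rest of the members' signal, and the other 5 members were close to 0 in every library. With a mean over the 16 libraries of at least 1 TPM required for the fit across genes, only Ces1d and Ces2c of the 8 members passed. Ces2g passed at a mean of at least 0.1 TPM, and the other 5 passed neither filter. Ces2c passed through the groups other than WT at 6 months, whereas Ces2g was above 0.1 TPM in every library.

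**Figure D1:**
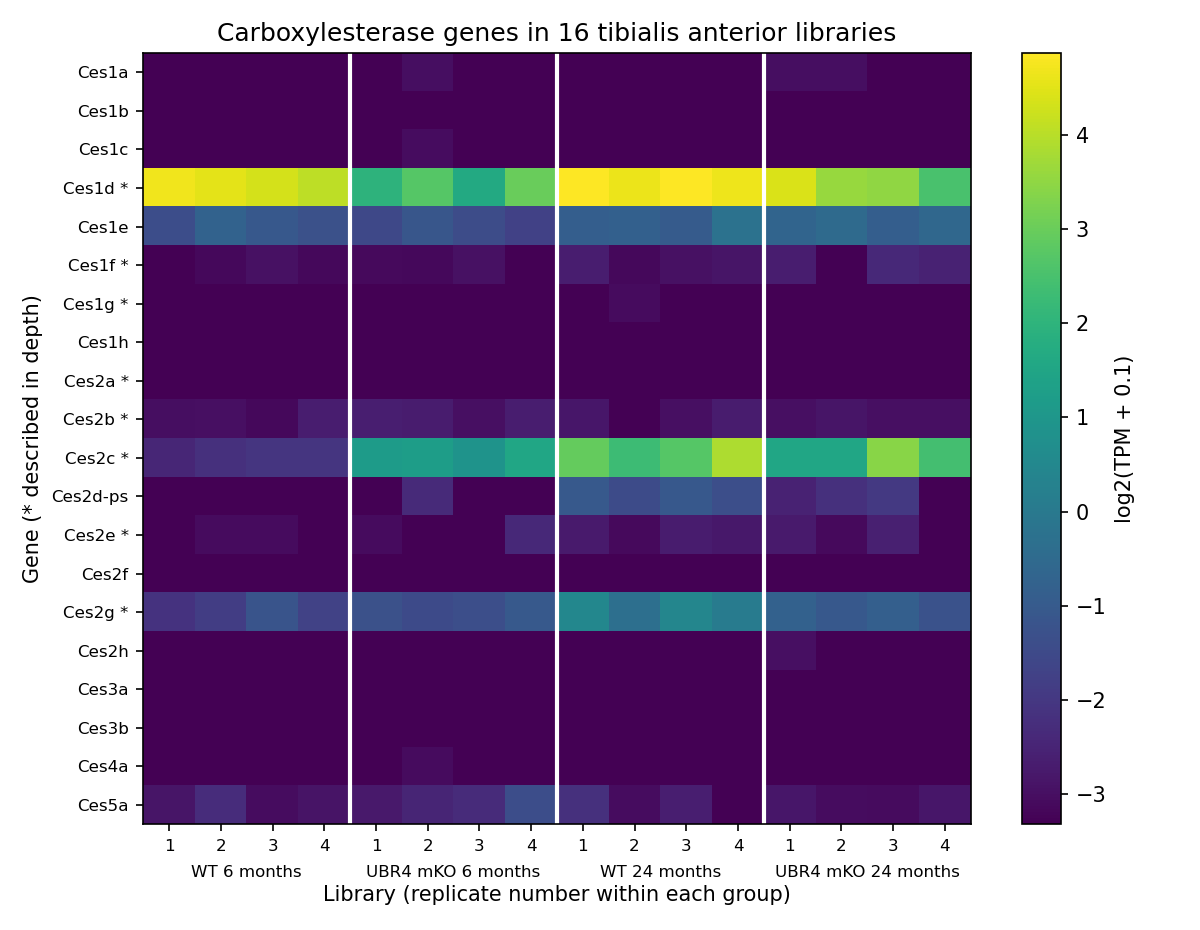
Levels of the 20 carboxylesterase genes as log2(TPM + 0.1) (colour), with genes as rows (asterisks mark the 8 members) and the 16 libraries as columns in their 4 groups. Ces1d is bright in all groups but darkest in UBR4 mKO at 6 months, Ces2c is dark in WT at 6 months and bright elsewhere, and 6 of the 20 genes are at 0 in every library.

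Ces1d in WT muscle at 6 months was at 25.5, 23, 20.2 and 16.5 TPM in the 4 replicates. In UBR4 mKO muscle of the same age it was at 3.79, 6.47, 3.06 and 7.95 TPM. Every UBR4 mKO library lay below every WT library, with means of 5.32 ± 2.29 and 21.3 ± 3.88 TPM (SD, n = 4 each). WT was thus 4.01-fold higher by the means, and the log2 difference of UBR4 mKO minus WT on the log2(TPM + 0.1) scale was −2.07 (SE 0.32). This is the contrast for which Ces1d was picked, and it is given without a test. Relative to the median gene the difference was −2.39, and it was −2.25 without the 3 libraries with Xist above Ddx3y.

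At 24 months Ces1d was at 29.2, 24.8, 28.6 and 25.3 TPM in WT muscle, the tightest of the 4 groups relative to its mean. In UBR4 mKO muscle it was at 21.3, 12.1, 11.3 and 5.65 TPM. The groups again did not overlap, although replicate 1 of UBR4 mKO came close to the lowest WT library. The means were 12.6 ± 6.47 TPM in UBR4 mKO and 27 ± 2.21 TPM in WT (SD, n = 4), and the log2 difference was −1.24 (SE 0.32). None of these libraries was used to pick the gene. The difference did not pass the threshold of 0.05 in limma's fit across 10628 genes, at a Benjamini-Hochberg adjusted p of 0.0958, while the two-sided exact permutation test of this single gene gave p = 0.0286, the smallest that 4 against 4 samples allow. Groups without overlap at 24 months were seen for 5.83% of the genes with a mean of at least 0.1 TPM. Leaving out replicate 1 of UBR4 mKO at 24 months moved the difference to −1.54 and limma's adjusted p to 0.0243, the only one of 16 libraries whose removal changed the call. Without the 3 libraries with Xist above Ddx3y, all of 6 months, limma's adjusted p was 0.133.

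With age, Ces1d in WT muscle had overlapping values and a log2 difference of 0.35 (SE 0.32) for 24 minus 6 months, or 0.089 relative to the median gene. In UBR4 mKO muscle the difference was 1.18 (SE 0.32), and the groups overlapped, as the lowest library at 24 months (5.65 TPM) was below the 2 highest at 6 months. Both age differences are descriptions, since they share libraries with the contrast that picked Ces1d. The order of the group means was UBR4 mKO at 6 months, UBR4 mKO at 24 months, WT at 6 months and WT at 24 months, from low to high, and each neighbouring pair in that order overlapped.

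**Figure D2:**
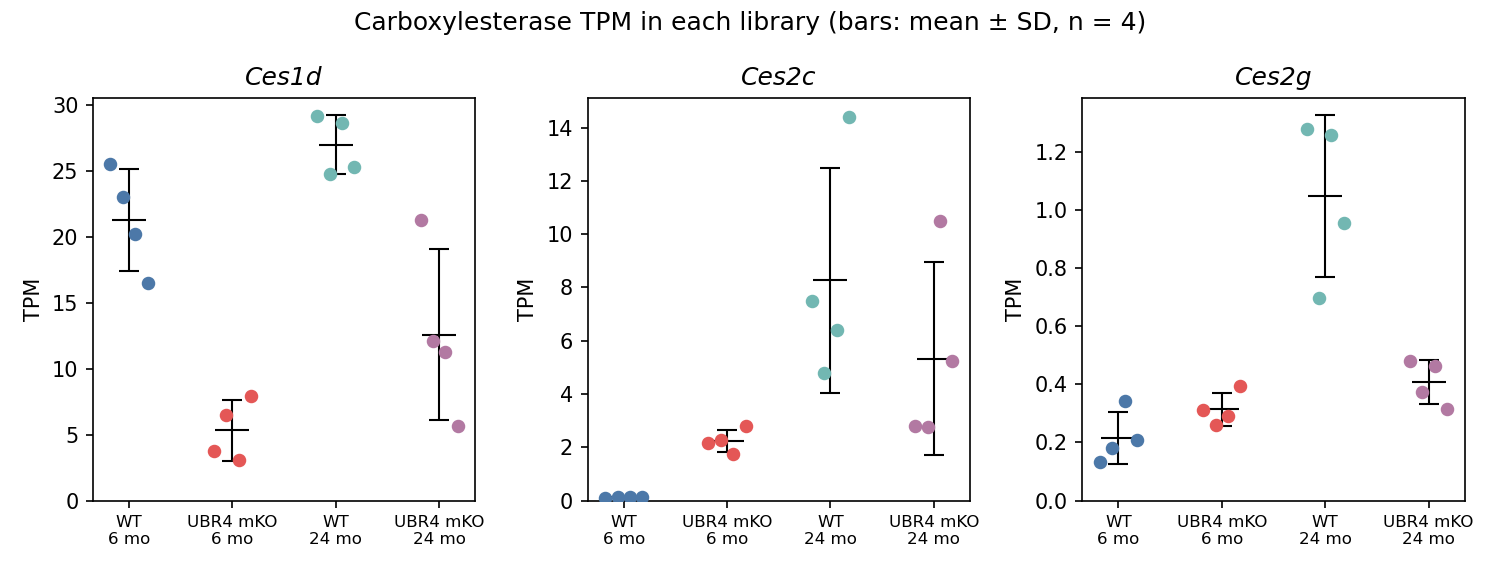
TPM of Ces1d, Ces2c and Ces2g in each of the 16 libraries (points) by group, with the mean and SD of each group (n = 4, black bars). Ces1d is lower in UBR4 mKO than in WT at both ages without overlap, Ces2c is at or below 0.142 TPM in WT at 6 months only, and Ces2g is highest in WT at 24 months.

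Ces2c showed another pattern, with WT muscle at 6 months standing far below the other 3 groups. In that group it was at 0.0842, 0.119, 0.142 and 0.142 TPM. In WT muscle at 24 months it was at 7.48, 4.78, 6.4 and 14.4 TPM. Every old WT library was above every young one, with means of 8.27 ± 4.26 and 0.122 ± 0.0272 TPM (SD, n = 4). The ratio of the means was 68, but the lower mean is near 0.1 TPM, and the log2 difference of 5.12 (SE 0.36) depended on the pseudocount, being 2.95 with 1 and 5.87 with 0.01 in place of 0.1. Ces2c was picked for this contrast, so no test is given. When the TPM of all Ces2 genes was summed, to cover reads shared between them, the difference was 4.30, and this sum does not include Gm8798 and Gm6831. Without the 3 libraries with Xist above Ddx3y it was 5.19.

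In UBR4 mKO muscle Ces2c was already measurable at 6 months, at 2.16, 2.26, 1.76 and 2.78 TPM. All 4 libraries lay above the 4 young WT libraries, with a mean of 2.24 ± 0.422 TPM (SD, n = 4) and a log2 difference of 3.39 (SE 0.36), or 1.52 with a pseudocount of 1 and 2.54 with all Ces2 genes summed. This comparison uses the young WT libraries of the contrast that picked the gene and is a description. At 24 months the UBR4 mKO libraries were at 2.81, 2.77, 10.5 and 5.23 TPM. They overlapped with WT of the same age, and the log2 difference of UBR4 mKO minus WT was −0.72 (SE 0.36), also a description.

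The change of Ces2c with age within UBR4 mKO muscle shares no library with the contrast that picked it. The means were 5.32 ± 3.61 TPM at 24 and 2.24 ± 0.422 TPM at 6 months (SD, n = 4), and the groups met at 2.77 against 2.78 TPM. The log2 difference of 1.01 (SE 0.36) did not pass the threshold in limma's fit (adjusted p = 0.11), nor did the two-sided exact permutation test (p = 0.0571). Without replicate 4 of UBR4 mKO at 6 months, the only one of its libraries with Xist above Ddx3y, and the 2 such WT libraries it was 1.12 (limma adjusted p = 0.15). From low to high the order of the means was WT at 6 months, UBR4 mKO at 6 months, UBR4 mKO at 24 months and WT at 24 months. Only the step from WT to UBR4 mKO at 6 months was without overlap. The effect of UBR4 mKO at 24 minus that at 6 months was −4.11 (SE 0.50) on the log2 scale, with the sign changing between the ages, and is likewise a description. It was −2.13 with a pseudocount of 1, −4.84 with 0.01 and −3.34 with all Ces2 genes summed.

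Ces2g, whose gene lies beyond Ces2e at the far end of the Ces2 members, was not picked for a change and can be tested in each comparison. In WT muscle it was at 0.131, 0.181, 0.342 and 0.209 TPM at 6 months and at 1.28, 0.696, 1.26 and 0.957 TPM at 24 months. The old WT libraries were all above the young ones, with means of 1.05 ± 0.278 and 0.216 ± 0.0905 TPM (SD, n = 4). The log2 difference was 1.87 (SE 0.23), with an adjusted p of 6.42e-05 in limma's fit over the 14453 genes with a mean of at least 0.1 TPM, and 4 of 4 old libraries were higher. Its size depended on the pseudocount, being 0.745 with 1 and 2.27 with 0.01 in place of 0.1, and the call held with both. In this comparison and fit 19.6% of all genes passed the threshold, and 23.6% had groups without overlap, so passing was not rare. The two-sided exact permutation test gave p = 0.0286. The call was lost with Dunn's rank test (adjusted p = 0.136). That test can hardly pass an adjustment over all genes with 4 samples a group. Relative to the median gene the difference was 1.61, and without the 3 libraries with Xist above Ddx3y it was 2.07 (limma adjusted p = 0.000698).

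In UBR4 mKO muscle Ces2g was at 0.312, 0.26, 0.29 and 0.394 TPM at 6 months and at 0.48, 0.373, 0.463 and 0.316 TPM at 24 months. The ages overlapped, and the log2 difference of 0.29 (SE 0.23) did not pass the threshold (limma adjusted p = 0.53; exact permutation p = 0.114). At 24 months all 4 UBR4 mKO libraries were below all 4 WT libraries, with a mean of 0.408 ± 0.0777 TPM (SD, n = 4). The log2 difference of UBR4 mKO minus WT was −1.16 (SE 0.23), with a limma adjusted p of 0.029 and a two-sided exact permutation p of 0.0286. With a pseudocount of 1 and 0.01 it was −0.532 and −1.32. In that comparison 0.595% of the genes passed the threshold in the same fit. The call was lost when replicate 1, 3 or 4 of WT or replicate 2 or 4 of UBR4 mKO at 24 months was left out, with adjusted p-values between 0.0593 and 0.11, while the difference stayed between −1.32 and −1.05 over all 16 libraries left out in turn. It was also lost with no filter on low values, with only the groups of the comparison in the fit and with Dunn's rank test.

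At 6 months Ces2g in UBR4 mKO minus WT was 0.42 (SE 0.23) on the log2 scale, which did not pass (limma adjusted p = 0.138; exact permutation p = 0.114), and 0.0956 relative to the median gene. The effect of UBR4 mKO at 24 minus that at 6 months was −1.58 (SE 0.32), with an adjusted p of 0.0141 for the interaction in limma's fit, against 3.51% of genes passing in that fit. With median-of-ratios scaling, which sets the median gene near 0, it was −1.33 and no longer passed (limma adjusted p = 0.0532), with a pseudocount of 1 and 0.01 it was −0.646 and −1.91, and without the 3 libraries with Xist above Ddx3y it was −1.69 (limma adjusted p = 0.0203). From low to high the means of Ces2g were 0.216, 0.314, 0.408 and 1.05 TPM in WT at 6 months, UBR4 mKO at 6 months, UBR4 mKO at 24 months and WT at 24 months, and only the last step was without overlap.

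**Figure D3:**
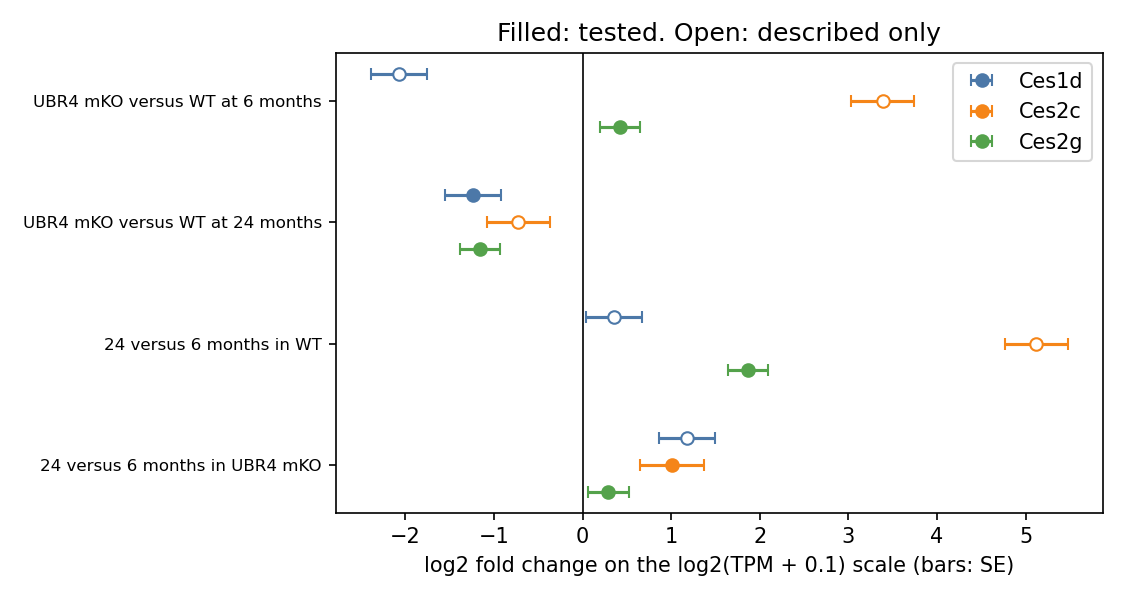
Log2 fold changes on the log2(TPM + 0.1) scale with SE (bars) of Ces1d, Ces2c and Ces2g in the 4 comparisons, with filled symbols for tested values and open symbols for descriptions. At 24 months all 3 genes lie left of 0, at −1.24, −0.72 and −1.16, and with age in WT Ces2c and Ces2g lie right of it, at 5.12 and 1.87.

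The remaining members gave little or no signal in muscle. Ces2a, a Ces2 enzyme of liver and intestine, was at 0 in all 16 libraries. Ces1g (also called Ces1 or Es-x), a lipid hydrolase of liver and intestine, was above 0 in 1 library, at 0.019 TPM in replicate 2 of WT at 24 months. Ces1f, a liver esterase, was between 0 and 0.0911 TPM and was listed at 0 in 3 libraries. Ces2e, known mainly from intestine and liver, was between 0 and 0.0906 TPM, with 5 libraries at 0. Ces2b stayed between 0 and 0.0616 TPM even where its near copy Ces2c reached 14.4 TPM, and only 3 of its 3309 windows of 100 bases were shared with another gene. For Ces1f, Ces2b and Ces2e no comparison was below 0.05 in the exact permutation test (lowest p = 0.0857, among 20 exact tests of members, unadjusted). Without read counts no limit of detection can be given for them.

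Ces1d and Ces2c were the members with a mean of at least 1 TPM, and each can be tested in 1 comparison only. At 24 months Ces1d did not pass the threshold (0 of 1), where 0.63% of all genes did, and with age in UBR4 mKO Ces2c did not pass (0 of 1), against 6.29% of all genes. In the comparisons where the values of both genes are descriptions, 44.9% of all genes passed in UBR4 mKO versus WT at 6 months, 25.1% with age in WT and 4.7% in the interaction. Nothing about the family is read from these shares.

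Summed over the 20 carboxylesterase genes, the level was 22.1 ± 3.83 TPM in WT and 8.4 ± 2.84 TPM in UBR4 mKO at 6 months, and 37.3 ± 4.57 TPM in WT and 19.1 ± 6.22 TPM in UBR4 mKO at 24 months (SD, n = 4). In WT muscle at 6 months Ces1d made up 95.5% to 97.9% of this sum and Ces2c at most 0.822%. In the other groups Ces2c held a share of 23.4% to 32.5% (UBR4 mKO at 6 months), 15.4% to 34.4% (WT at 24 months) and 11.1% to 45.4% (UBR4 mKO at 24 months). The ratio of Ces1d to Ces2c TPM was 116 to 303 in young WT muscle and 1.08 to 7.57 over the other 12 libraries. Both genes that were picked set these shares, so they are descriptions.

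**Figure D4:**
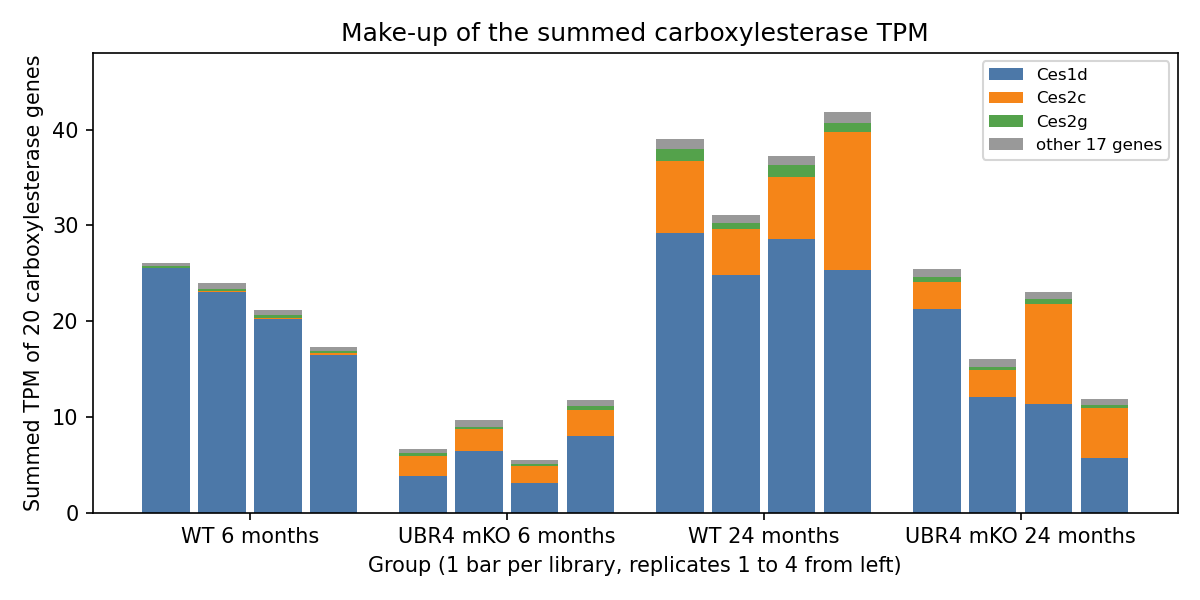
Summed TPM of the 20 carboxylesterase genes in each library (1 bar per library, replicates 1 to 4 from the left in each group), split into Ces1d, Ces2c, Ces2g and the other 17 genes. Ces1d fills nearly the whole bar in WT at 6 months, and Ces2c takes 11.1% to 45.4% of the bar in the other 12 libraries.

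Among the 12 other genes of the family, 5 were at 0 in every library (Ces1b, Ces1h, Ces2f, Ces3a and Ces3b). Ces1a, Ces1c, Ces2h, Ces4a and Ces5a had means under 0.1 TPM, with the highest library at 0.281 TPM for Ces5a. Ces1e, which neighbours Ces1d, was the only other family gene above 0 in all 16 libraries with a mean of at least 0.1 TPM, at 0.423 TPM over all of them. In UBR4 mKO versus WT its log2 differences were −0.34 (SE 0.21) at 6 months and 0.064 (SE 0.21) at 24 months (limma adjusted p = 0.187 and 0.97), and their difference from those of Ces1d was not tested. With age in UBR4 mKO it was higher by 0.80 (SE 0.21, limma adjusted p = 0.028), and the groups did not overlap (0.269 ± 0.0682 against 0.536 ± 0.0678 TPM; SD, n = 4), as for 13.1% of all genes. The pseudogene Ces2d-ps was at 0 in all 4 young WT libraries and between 0.263 and 0.388 TPM in all 4 old ones. In UBR4 mKO it was above 0 in 1 of 4 young libraries and reached at most 0.158 TPM at 24 months. Since 57% of its windows of 100 bases occur in other transcripts, among them that of Ces2c, its reads cannot be told apart from reads of Ces2c with certainty.

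The 250 bases upstream of the start sites of Ces2c and Ces2g are shown because these paralogs of 1 cluster, with Ces2d-ps, Ces2e and Ces2f between them, were both higher in old than in young WT muscle. They are from RefSeq on GRCm38.p6, on the plus strand, and 5 of the 8 members have an entry in the table used. The capitals mark any match, on either strand, to 6 motifs that were searched: the TATA box TATAAA, the E-box CANNTG, the NF-kB-like pattern GGGNNNNNCC, the RUNX core TGTGGT, the nuclear receptor half-site AGGTCA and the GC box GGGCGG.
Ces2c, chr8:104846818-104847067: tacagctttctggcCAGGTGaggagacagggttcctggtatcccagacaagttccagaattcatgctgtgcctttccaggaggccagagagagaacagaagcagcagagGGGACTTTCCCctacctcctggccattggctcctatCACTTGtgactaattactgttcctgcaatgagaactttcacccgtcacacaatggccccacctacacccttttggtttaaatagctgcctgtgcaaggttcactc
Ces2g, chr8:104961468-104961717: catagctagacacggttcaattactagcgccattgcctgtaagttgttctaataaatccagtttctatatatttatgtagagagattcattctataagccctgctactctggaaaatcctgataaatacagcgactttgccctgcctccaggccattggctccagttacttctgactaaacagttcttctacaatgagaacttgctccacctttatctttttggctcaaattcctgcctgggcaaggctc

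The Ces2c window held 2 E-box matches, at −236 and −105 from the start site, and 2 overlapping NF-kB-like matches at −141 and −140. E-box matches occur in 66.2% and NF-kB-like matches in 45.8% of the 32851 promoter windows of the same length, so both patterns as searched are common. How often the exact stretches marked here occur was not counted. The Ces2g window held none of the 6 motifs. The other 4 motifs, absent from both windows, occur in 12.4% (TATA box), 14% (RUNX core), 14% (nuclear receptor half-site) and 32.7% (GC box) of all windows. A match is a run of letters and not a binding site.

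Few other expressed genes lie near these genes. Within 150 kb of the outermost Ces1 members the annotation holds 8 genes outside the family, none of them protein-coding and none in the expression table. Around the Ces2 members it holds 19, of which 4 are protein-coding and 3 had a mean of at least 1 TPM, namely Rrad, Ciao2b and Pdp2. Rrad, which encodes a small GTPase that inhibits voltage-gated calcium channels, starts 216 kb before Ces2c on the opposite strand. It had a pattern like that of Ces2c, at 1.29, 1.31, 1.66 and 0.51 TPM in WT at 6 months and at 28, 17.3, 25.8 and 37.2 TPM in WT at 24 months. In UBR4 mKO it was at 17.6, 27.2, 13.6 and 13.6 TPM at 6 months and at 10, 12.9, 44.1 and 22.3 TPM at 24 months. The young WT libraries were below all others, and replicate 3 of UBR4 mKO and replicate 4 of WT at 24 months were the highest for both genes.

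In limma's fit Rrad was higher in UBR4 mKO than in WT at 6 months by 3.85 (SE 0.40, adjusted p = 1.45e-05) and at 24 than at 6 months in WT by 4.45 (SE 0.40, adjusted p = 3.3e-06). Over the 16 libraries the log2(TPM + 0.1) values of Rrad and Ces2c had a Pearson r of 0.955, and of 0.703 after the group means were removed, as a description. The points share their groups and libraries, and Ces2c was picked for part of this pattern. Ciao2b (listed as Fam96b) and Pdp2 had smaller log2 differences with age in WT, at 0.35 (SE 0.12, limma adjusted p = 0.0439) and 0.58 (SE 0.25, limma adjusted p = 0.0851). In UBR4 mKO versus WT at 6 months Ciao2b differed by 0.096 (SE 0.12, limma adjusted p = 0.507) and Pdp2 was higher by 0.80 (SE 0.25, limma adjusted p = 0.0176).

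**Figure D5:**
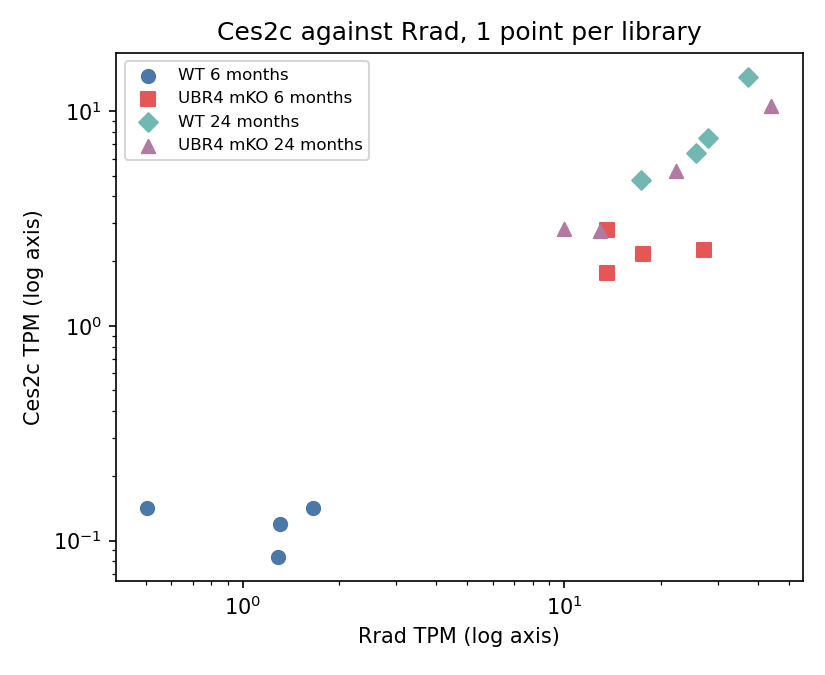
TPM of Ces2c (vertical, log axis) against TPM of Rrad (horizontal, log axis), 1 point per library, with symbols for the 4 groups. The 4 WT libraries of 6 months form a separate set at the lower left, at or below 1.66 TPM of Rrad and 0.142 TPM of Ces2c, and the other 12 libraries lie at or above 10 TPM of Rrad.

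Of the genes outside the family, the 5 most like Ces1d over the 16 libraries were Ppp1r1a (r = 0.947), Hnmt (0.893), Gid4 (0.887), Ramp1 (0.886) and Serpine2 (0.875), by Pearson's r of log2(TPM + 0.1). Ppp1r1a, which encodes a protein phosphatase inhibitor, had mean TPM of 57.6 in WT and 25.6 in UBR4 mKO at 6 months, and of 58.9 and 44.2 at 24 months. Hnmt, a histamine-inactivating enzyme, had means of 3.61, 1.51, 3.71 and 2.29 TPM in the same order. The 5 most like Ces2c were Krt18 (r = 0.983), Tbc1d31 (0.977), Tnfrsf23 (0.972), Runx1 (0.971) and Aif1l (0.968). Krt18, a keratin of simple epithelia, had means of 0.16 and 5.86 TPM at 6 months and of 17.9 and 18 TPM at 24 months in WT and UBR4 mKO. Runx1, a transcription factor, had means of 0.215, 1.05, 1.57 and 1.23 TPM in the same order. These correlations follow the differences between the 4 groups as well as those within them. After the group means were removed r was 0.801 for Ppp1r1a with Ces1d and 0.811 for Krt18 with Ces2c. Over the 5 genes of each it ran from 0.567 to 0.905 for Ces1d and from 0.651 to 0.926 for Ces2c. The genes were selected by r over these same libraries, which can raise the values within groups too, so they are descriptions only.

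Between the members, r over the 16 libraries was 0.76 for Ces2c with Ces2g and −0.101 for Ces1d with Ces2c. Without the group means these fell to 0.24 and −0.158. These values are descriptions, since Ces1d and Ces2c were picked from these libraries. No interval was computed, so the size of any link within the groups is not known.

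The other enzymes of stored lipid were set beside Ces1d. Of 19 listed neutral lipid hydrolases and relatives 16 were tested. In UBR4 mKO versus WT at 6 months 7 were higher and 0 lower, against 44.9% of all genes passing in either direction, and their median log2 difference of 0.242 lay below the 0.327 of all genes. Pnpla2, the main triacylglycerol lipase of adipose tissue and muscle, was at 130 against 87.5 TPM (log2 0.58, SE 0.09, limma adjusted p = 0.000302), and Lipe, the hormone-sensitive lipase, at 6.72 against 4.81 TPM (log2 0.48, SE 0.12, limma adjusted p = 0.00611). At 24 months 0 passed in either direction, where 0.63% of all genes did. With age in WT Abhd6 and Abhd12, which hydrolyse monoacylglycerol, were higher and Dgat2, which makes triacylglycerol, was lower, and in UBR4 mKO 1 gene, Abhd6, was higher. These are 3 and 1 of 16 genes, where 25.1% and 6.29% of all genes passed. The list's median log2 difference was 0.0897 at 24 months, 0.158 with age in WT and −0.0265 with age in UBR4 mKO, beside 0.0128, 0.264 and −0.0432 over all genes.

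Of 30 listed genes of drug and xenobiotic metabolism, the other role of carboxylesterases, 21 were tested. In UBR4 mKO versus WT at 6 months 4 were higher and 0 lower, among them the aldehyde oxidase Aox1 (10.7 against 5.28 TPM, log2 1.06, SE 0.21, limma adjusted p = 0.00147) and Por, the reductase that feeds cytochrome P450 enzymes (7.12 against 5.27 TPM). That is 4 of 21, where 44.9% of all genes passed. Their median difference was 0.0849, against 0.327 for all genes. At 24 months 0 passed, where 0.63% of all genes did. With age in WT 4 of 21 were higher and 0 lower, among them Hsd11b1, which activates glucocorticoids (4.32 against 2 TPM, log2 1.04, SE 0.16, limma adjusted p = 0.000415), and Nfe2l2, the regulator of oxidative stress genes (18 against 12.6 TPM), where 25.1% of all genes passed. With age in UBR4 mKO 3 were higher, Hsd11b1, Nqo1 and Aldh1a1, and Aox1 was lower, where 6.29% of all genes passed. The list's median was 0.0648 at 24 months, 0.213 with age in WT and 0.134 with age in UBR4 mKO, to be read beside the all-gene medians just given.

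Markers of other cell types were read in the same libraries, because carboxylesterases are abundant in some of them. In bulk muscle, fewer cells of a type and less RNA per cell cannot be told apart. Hepatocyte markers were close to absent, with a sum of at most 0.46 TPM over 8 genes, 7 of them below 0.1 TPM in every library and Ttr, Fgb and Cps1 at 0 throughout. The 10 adipocyte markers were all detected somewhere, and 6 had a mean of at least 1 TPM. Their sum was 347 to 466 TPM in WT and 491 to 529 TPM in UBR4 mKO at 6 months, and 286 to 437 TPM and 409 to 475 TPM at 24 months. Most of this sum was Fabp4, a fatty acid binding protein also made by endothelial cells, at a mean of 297 TPM in WT and 402 TPM in UBR4 mKO at 6 months. Over the list the median log2 difference at 6 months was 0.199, beside 0.327 over all genes, with 2 of 6 tested genes higher, where 44.9% of all genes passed in either direction. At 24 months it was 0.74, beside 0.0128, with 1 of 6 higher, against 0.63% of all genes. Adipoq, the adipocyte hormone, was at 0.821 to 2.59 TPM in WT and 1.13 to 10 TPM in UBR4 mKO at 24 months, and had means of 1.15 and 1.25 TPM at 6 months.

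Macrophage and leukocyte markers (7 of 8 in the table) had their lowest summed TPM in young WT muscle, where Ces2c was lowest too. The median of their sum was highest in UBR4 mKO at 24 months (133 TPM), whereas that of Ces2c was highest in WT of that age (6.94 TPM). The marker sum was 26 to 42.1 TPM in WT and 88.7 to 247 TPM in UBR4 mKO at 6 months, and 42.7 to 99 TPM and 105 to 344 TPM at 24 months. At 6 months all 6 tested markers were higher in UBR4 mKO (list median 1.84 beside 0.327 over all genes, of which 44.9% passed). At 24 months 0 passed (0.906 beside 0.0128), where 0.63% of all genes did. With age in WT 2 were higher (1.17 beside 0.264), where 25.1% of all genes passed. None of the markers in the table was at 0 in every library. Endothelial markers summed to 131 to 140 TPM in UBR4 mKO at 6 months and to 70.9 to 112 TPM elsewhere. Of the 7 markers 4 were higher in UBR4 mKO than in WT at 6 months, where 44.9% of all genes passed. Their list median was 0.416 beside 0.327 over all genes. With age in UBR4 mKO 4 were lower, with a list median of −0.538 beside −0.0432, where 6.29% of all genes passed. Of the 7 fibroblast markers Col3a1, Lum, Pdgfra and Dpt were higher in UBR4 mKO at 6 months, with a list median of 0.727 beside 0.327 over all genes, of which 44.9% passed. At 24 months the list median was 0.417 beside 0.0128 and 0 passed, where 0.63% of all genes did. With age in UBR4 mKO 3 were lower (−0.194 beside −0.0432), where 6.29% of all genes passed. With age in WT the list median was 0.166, beside 0.264 over all genes, and 2 of the 7 passed, where 25.1% of all genes did. These were the collagens Col1a1 (−1.91) and Col1a2 (−1.53 on the log2 scale), both lower at 24 months, while Pdgfra was at 0.58 (limma adjusted p = 0.0623). The 10 myofiber markers were all present and summed to at least 84400 TPM in every library. The part of these cell types in the levels of the carboxylesterases was not tested.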

How the data were processed

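RNA of 16 tibialis anterior muscles was sequenced as paired 100-base reads. The authors trimmed the reads, aligned them to GRCm38 (mm10) with CLC Genomics Workbench and deposited 1 table of TPM per gene and library. The labels and the methods name different library kits and sequencers, and the annotation release and the treatment of reads that fit several genes are not given in the sources used here. TPM holds no read counts, so depth is unknown and no counting intervals are given. Between 16557 and 17599 genes were above 0 per library.

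Groups were taken from the sample labels. Here log2(TPM + 0.1) was fitted with limma 3.58.1 (R 4.3.3), 1 coefficient per group and a variance trend, over all 10628 genes with a mean of at least 1 TPM, or 14453 with at least 0.1 TPM for Ces2g, Ces1e and Ces2d-ps, with Benjamini-Hochberg adjustment and a threshold of 0.05. Dunn's test, which the study used with Kruskal-Wallis tests, was an alternative, and so were other pseudocounts, filters, scalings and samples. The Kruskal-Wallis step itself was not run. Single genes were also tested by exact permutation (scipy 1.17.1, two-sided, 70 assignments). Sequence windows and alignments used Biopython 1.88 and GENCODE. Fold changes on this scale understate changes of low genes.

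The members, gene lists and tests were chosen with earlier results of these data known. Named genes were the 20 family genes, up to 4 genes of each list with the smallest p, the annotated genes within 150 kb of the members, and the 5 genes most correlated with Ces1d and with Ces2c, with Ubr4, Xist and Y-linked genes as checks of the labels.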

Additional observations from a re-analysis of the deposited data

Results flagged for a closer look

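Ces2g is listed here because the interaction of genotype and age, which tests the difference between its responses to UBR4 mKO at 6 and at 24 months, passed the threshold. It was −1.58 (SE 0.32) on the log2 scale, with an adjusted p of 0.0141 in limma's fit, from 0.42 at 6 months to −1.16 at 24 months. With median-of-ratios scaling it was −1.33 and did not pass (limma adjusted p = 0.0532), and with a pseudocount of 1 and 0.01 it was −0.646 and −1.91. At 24 months the 4 UBR4 mKO libraries were all lower than the 4 WT libraries, and at 6 months the groups overlapped. Ces1g in replicate 2 of WT at 24 months, at 0.019 TPM, lay apart from the other 3 libraries of its group, all at 0, by Dixon's test. With the other 3 libraries at 0 any value above 0 would have been listed, so nothing is read from it. This was 1 of 25 sets of 4 values of a member in a group, where chance would give about 1.25, and the other 7 sets held only zeros and could not be examined.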

How the results depend on the processing

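Of 191 tested values of single members under other settings, 180 kept their direction and their side of the threshold, 10 were no longer past it, 1 newly passed and 0 reversed. Of 228 described values, 219 moved by less than the spread between replicates, 9 moved by more and 0 reversed, and by limma's adjusted p or Dunn's 11 of them were no longer under 0.05 (most of them Ces1d with age in UBR4 mKO) and 1 newly was (Ces2c at 24 months). The 9 are all Ces2c with another pseudocount or with paralogs summed, for example 1.52 and 4.10 at 6 months with a pseudocount of 1 and 0.01. The counts of members below include Ces1d and Ces2c where their differences are descriptions, and nothing is read from those. With limma's fit and a mean of at least 1 TPM they were 2 at 6 months, 0 at 24 months, 1 with age in WT, 1 with age in UBR4 mKO and 1 in the interaction. Of all genes 44.9%, 0.63%, 25.1%, 6.29% and 4.7% passed in these comparisons. Dunn's test with 4 samples a group can hardly pass an adjustment over all genes. With it 0 members passed at 6 months, 0 with age in WT and 0 with age in UBR4 mKO. With a mean of at least 0.1 TPM 1 member passed at 24 months (Ces2g), 2 with age in WT and 2 in the interaction, since Ces2g was then tested. Of all genes 0.595%, 19.6% and 3.51% passed in these comparisons of that fit. Under the other settings the share of all genes was not counted, so nothing is read from their counts of members. With no filter 2 passed with age in WT, 2 in the interaction and 0 with age in UBR4 mKO, and with only the groups of the comparison in the fit 0 passed with age in UBR4 mKO. With array weights 1 passed at 24 months (Ces2c). Leaving out each library gave 0 to 1 at 24 months (Ces1d without UBR4 mKO 24 months replicate 1) and 0 to 1 with age in UBR4 mKO, where Ces1d was lost without replicate 1 or 3 of UBR4 mKO at 6 months or replicate 1, 2 or 3 at 24 months. The Ces2g call at 24 months was also lost with no filter (limma adjusted p = 0.0545), with only its own groups (0.119) and with Dunn's test (0.925), its call with age in WT only with Dunn's test (0.136) and its interaction with median-of-ratios scaling (−1.33, limma adjusted p = 0.0532). The size of the tested Ces2g values changed with the pseudocount, from 0.745 with 1 to 2.27 with 0.01 with age in WT, from −0.532 to −1.32 at 24 months and from −0.646 to −1.91 in the interaction. Except where the number of genes tested changed, the cause of these shifts was not tested. Replicate numbers did not pair the samples (r of deviations −0.155 to 0.181, with 4 of 16 pairs over 0.1 and 5 of 16 samples closest to their own number), and with the replicate number as a block 2 members passed at 6 months and 0 at 24 months, where Ces1d had an adjusted p of 0.12 in limma's fit. Depth is unknown, which limits what can be said of the 5 members below 0.1 TPM.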
